A study of Mus musculus with 7 samples.

Results

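Described here on 7 arrays are 7 genes linked to pluripotency: L1td1, Fgf4, Etv5, Gdf3, Lin28a, Apela and Podxl. All read higher in WT mouse embryonic stem cells (ESCs) than in WT fibroblasts with the reprogramming factors off. They are 7 of the 13562 genes that the array annotation names, and they were read by 8 of the 21811 probe sets, since Etv5 has 2. The members were chosen by their array values, as ESC genes that were higher in WT fibroblasts with the reprogramming factors on or in a KO-labelled library with a high Pou5f1 level, so their differences in those comparisons, and from ESCs, are a description and no test.

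The arrays held 1 sample per condition, so no difference has a replicate check and no p-value is given. The groups were Utx KO ESCs (V6.5 line, UTX-/Y) and WT ESCs (V6.5, UTX+/Y), fibroblasts made from Nanog-/- ESCs and given the factors by lentivirus, at 8 days, mouse embryonic fibroblasts (MEFs) labelled Utx KO with and without doxycycline (DOX), and WT MEFs with and without DOX. All 4 Utx MEF libraries were of the V19-OSKM kind, in which DOX switches on the 4 factors Oct4 (gene Pou5f1), Sox2, Klf4 and Myc, and how long DOX was given is not stated in the labels. Utx is the product of Kdm6a, a demethylase of lysine 27 on histone H3. The labels name the ESC medium N2B27 with 2i and LIF for every sample, fibroblasts included.

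The ESC state rests on Oct4, Sox2 and Nanog and is shaped by secreted signals. Fgf4 is the ligand through which ESCs stimulate their own FGF receptors and the kinase ERK, and Etv5 is a transcription factor of the ETS family that this route switches on. Gdf3 is a ligand of the Nodal branch of the TGF-beta family, and Apela is a small secreted peptide that binds the apelin receptor Aplnr. L1td1 is an RNA-binding protein derived from the LINE-1 transposon, Lin28a is an RNA-binding protein that blocks maturation of the let-7 microRNAs, and Podxl is a sialomucin of the cell surface, related to Cd34, that also coats podocytes of the kidney.

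Promoters are shown for 4 genes that differed in how far they lay toward the ESC level in WT MEFs with DOX. Apela, Fgf4 and L1td1 lay 50% or more of the way to the ESC level there, and Lin28a lay under the detection floor. Etv5 also lay past 50%, and its promoters are described below without their sequences. The sequences are RefSeq's for GRCm38.p6, from 250 bases before to 50 bases after the start site, 5′ to 3′. Capitals mark matches, on either strand, to the octamer bound by Oct4 without its last base (ATGCAAA), the Sox core (CATTGT), the GC box (GGGCGG) and the E-box bound by Myc (CACGTG).
Apela, chr8:65037287-65037586, minus strand: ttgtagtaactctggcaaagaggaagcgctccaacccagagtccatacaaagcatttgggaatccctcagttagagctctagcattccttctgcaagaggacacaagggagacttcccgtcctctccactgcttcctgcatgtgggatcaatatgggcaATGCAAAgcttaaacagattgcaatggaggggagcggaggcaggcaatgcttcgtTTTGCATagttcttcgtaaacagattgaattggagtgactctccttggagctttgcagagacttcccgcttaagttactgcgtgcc
Lin28a, chr4:134018767-134019066, minus strand: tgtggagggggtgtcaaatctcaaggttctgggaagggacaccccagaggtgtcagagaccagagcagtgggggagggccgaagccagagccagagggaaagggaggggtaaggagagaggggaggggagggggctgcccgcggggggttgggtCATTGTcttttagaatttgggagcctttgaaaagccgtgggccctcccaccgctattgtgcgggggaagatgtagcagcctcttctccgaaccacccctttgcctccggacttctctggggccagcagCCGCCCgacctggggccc
Fgf4, chr7:144861136-144861435, plus strand: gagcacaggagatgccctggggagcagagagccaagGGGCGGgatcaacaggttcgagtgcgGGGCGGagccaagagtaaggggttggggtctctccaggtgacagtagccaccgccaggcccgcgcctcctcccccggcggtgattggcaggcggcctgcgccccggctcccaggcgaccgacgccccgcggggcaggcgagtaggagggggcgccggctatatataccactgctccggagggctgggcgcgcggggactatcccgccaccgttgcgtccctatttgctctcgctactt
L1td1, chr4:98726504-98726803, plus strand: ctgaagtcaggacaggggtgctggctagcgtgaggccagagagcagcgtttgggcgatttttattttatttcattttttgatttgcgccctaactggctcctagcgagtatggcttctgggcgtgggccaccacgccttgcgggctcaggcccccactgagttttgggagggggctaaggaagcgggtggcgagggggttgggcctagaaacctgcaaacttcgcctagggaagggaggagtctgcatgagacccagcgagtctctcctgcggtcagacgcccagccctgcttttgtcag

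Apela held 2 matches to the octamer without its last base, their first bases at -91 and -36 from the start site. Of 32851 RefSeq promoters of the same length, 4.63% held at least 1 such match and 0.292% held 2 or more. The full octamer ATGCAAAT, which contains the shorter word, was in none of the 6 promoters of the 5 members in the table, against 1.74% of all promoters. Lin28a held 1 Sox core match at -96, a word in 12.6% of all promoters, and 1 GC box at 33. Fgf4 held 2 GC boxes at -214 and -188, a word in 35.7% of promoters, and L1td1 held no match to any of the words. The E-box, in 7.15% of all promoters, was in none of the 6. Of the Etv5 promoters, one held 3 GC boxes and the other none. Gdf3 and Podxl are named only. These are matches of letters in a short window, not binding sites.

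Before the values, the libraries need a description. Pou5f1 read 11.26 in the KO-labelled no-DOX library, against 8.19 in WT MEFs without DOX, and 5.12 in the KO-labelled DOX library, against 12.59 in WT MEFs with DOX. The KO-labelled no-DOX library was thus Pou5f1-high, and the one labelled KO with DOX was not. Both are called by their labels throughout, as the KO-labelled DOX and no-DOX libraries, and the values of the other 5 arrays do not use them. Over all 21811 rows the KO-labelled DOX library correlated at r = 0.842 with WT MEFs with DOX and at 0.972 with those without. The KO-labelled no-DOX library correlated at 0.864 with WT MEFs with DOX and at 0.921 with those without, so over all rows both were closer to WT MEFs without DOX. Rows share arrays and are not replicates. Kdm6a read 7.97 in Utx KO and 9.12 in WT ESCs, 7.57 in the KO-labelled DOX library, 6.32 in the KO-labelled no-DOX library, 8.93 in WT MEFs with DOX and 8.22 without. The array median was 8.55 for the Nanog KO fibroblasts and 7.68 to 7.84 on the 6 Utx arrays, so the Nanog KO array read higher at its median. All values are the deposited log2 values, and a value under 7.34, the 40th percentile of all values, is called under the floor, where order is not read.

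The markers of other cell types moved with the libraries. Of 21 measured epithelial markers, 20 were above the floor in WT MEFs with DOX, 8 in the KO-labelled no-DOX library, 11 in Nanog KO fibroblasts, 1 in the KO-labelled DOX library and 3 in WT MEFs without DOX. Their median level was 9.97 in WT MEFs with DOX, against 5.99 without. Of 17 fibroblast markers, 9 were above the floor in WT MEFs with DOX and all 17 in the other 4 fibroblast libraries, with 2 in Utx KO ESCs and 12 in WT ESCs. Of 16 macrophage markers, 12 were above the floor in Nanog KO fibroblasts, 8 in the KO-labelled DOX library, 5 in the KO-labelled no-DOX library, 2 in WT MEFs with DOX and 15 in WT MEFs without DOX. The part of these cells in the results below was not tested, and in bulk RNA fewer cells of a type and less RNA per cell cannot be told apart. Of 43 other pluripotency genes measured, 39 were above the floor in Utx KO ESCs and 38 in WT ESCs, against 15 in Nanog KO fibroblasts, 13 in the KO-labelled DOX library, 15 in the KO-labelled no-DOX library and 12 each in WT MEFs with and without DOX. Among them Nanog, Esrrb, Zfp42, Dppa5a and Tdgf1, named after their values were seen, were above the floor in both ESC libraries and under it in every fibroblast library, except Nanog at 7.82 in the KO-labelled no-DOX library.

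Of the secreted ligands, Fgf4 and Apela were above the floor in WT MEFs with DOX, and Gdf3 was not. Fgf4 read 11.21 in Utx KO ESCs and 10.89 in WT ESCs, 6.66 in Nanog KO fibroblasts, 5.90 in the KO-labelled DOX library, 7.55 in the KO-labelled no-DOX library, 9.21 in WT MEFs with DOX and 6.32 in WT MEFs without DOX. Its highest fibroblast value was thus in WT MEFs with DOX, and the KO-labelled no-DOX library lay just over the floor. Apela read 10.24 in Utx KO ESCs and 11.06 in WT ESCs, 6.88 in Nanog KO fibroblasts, 4.49 in the KO-labelled DOX library, 9.23 in the KO-labelled no-DOX library, 10.08 in WT MEFs with DOX and 4.41 in WT MEFs without DOX. WT MEFs with DOX lay just under Utx KO ESCs. Gdf3 read 11.08 in Utx KO ESCs and 10.65 in WT ESCs, 6.07 in Nanog KO fibroblasts, 5.50 in the KO-labelled DOX library, 8.19 in the KO-labelled no-DOX library, 5.86 in WT MEFs with DOX and 5.09 in WT MEFs without DOX. Among the fibroblast libraries it was above the floor in 1, the KO-labelled no-DOX library.

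Etv5, the transcription factor downstream of FGF signalling, was the only one of the 7 above the floor in WT MEFs without DOX. Its probe set with the higher mean read 11.61 in Utx KO ESCs and 11.41 in WT ESCs, 5.75 in Nanog KO fibroblasts, 8.50 in the KO-labelled DOX library, 9.52 in the KO-labelled no-DOX library, 10.30 in WT MEFs with DOX and 8.84 in WT MEFs without DOX. The other probe set read 10.02, 9.95, 5.76, 8.36, 9.23, 9.91 and 8.43 on the same arrays in that order. Both put Nanog KO fibroblasts lowest, under the floor, and both put WT MEFs with DOX highest among fibroblasts.

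The RNA-binding proteins differed from each other. L1td1 read 9.27 in Utx KO ESCs and 9.38 in WT ESCs, 7.35 in Nanog KO fibroblasts, 5.16 in the KO-labelled DOX library, 7.75 in the KO-labelled no-DOX library, 8.997 in WT MEFs with DOX and 5.44 in WT MEFs without DOX. WT MEFs with DOX lay next to the ESCs, and Nanog KO fibroblasts lay at the floor. Lin28a read 8.95 in Utx KO ESCs and 8.87 in WT ESCs, 6.58 in Nanog KO fibroblasts, 5.63 in the KO-labelled DOX library, 6.12 in the KO-labelled no-DOX library, 6.07 in WT MEFs with DOX and 5.74 in WT MEFs without DOX. It was above the floor in the ESCs only, of these 7 arrays.

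Podxl, the surface sialomucin, was the member that went past ESCs. It read 7.39 in Utx KO ESCs and 7.70 in WT ESCs, 8.58 in Nanog KO fibroblasts, 5.73 in the KO-labelled DOX library, 9.68 in the KO-labelled no-DOX library, 12.40 in WT MEFs with DOX and 5.73 in WT MEFs without DOX. It was above both ESC libraries in 3 fibroblast libraries, those in which Pou5f1 read above 11.

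**Figure D1:**
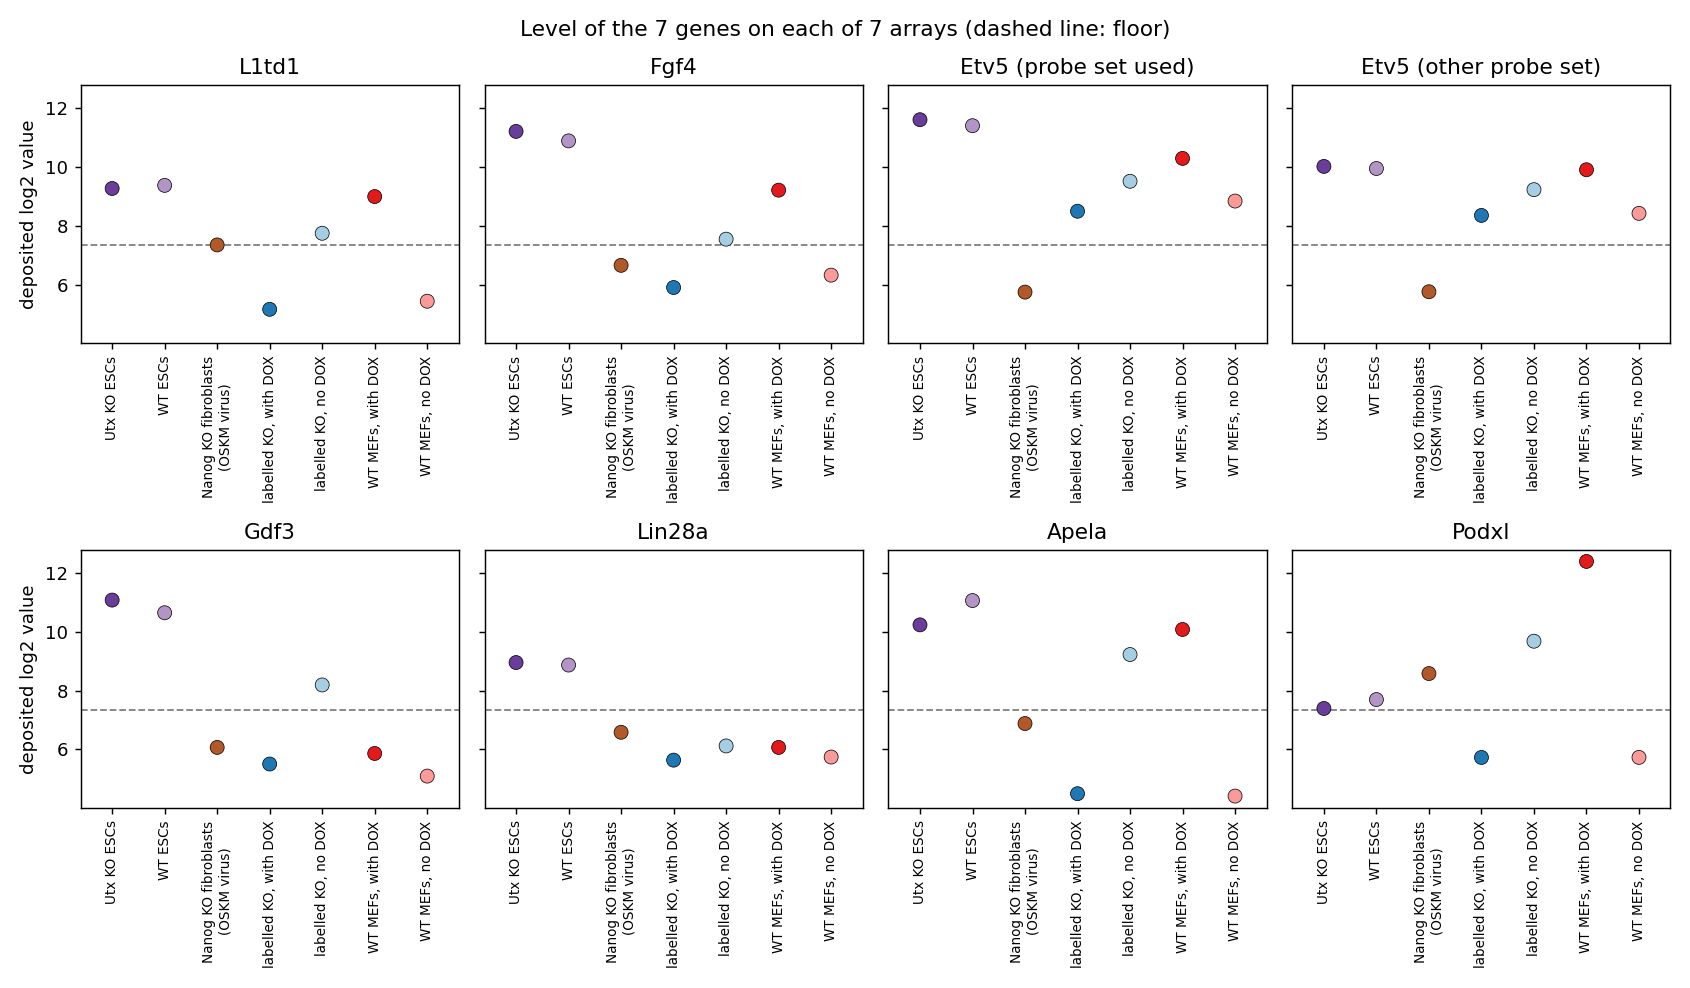
Deposited log2 value (vertical axis) of each gene on 7 arrays (horizontal axis), 1 point per array, with the floor of 7.34 as a dashed line and both probe sets of Etv5. Lin28a is above the floor in the ESCs alone, Gdf3 in the ESCs and the KO-labelled no-DOX library, and Podxl is highest in WT MEFs with DOX at 12.40.

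Set against WT MEFs without DOX, WT MEFs with DOX had 5 of the 7 genes 2-fold or more higher and above the floor, where 11.9% of 9524 genes were, and 0 lower, where 13.7% were. The rule chose the genes on this comparison, so nothing is read from the count. The log2 differences were 6.67 for Podxl, 5.67 for Apela, 3.56 for L1td1, 2.89 for Fgf4 and 1.45 for Etv5. With the value without DOX raised to the floor where it lay under it, Podxl was at least 33.3-fold, Apela at least 6.68-fold, Fgf4 at least 3.67-fold and L1td1 at least 3.15-fold higher, and Etv5 was 2.74-fold higher. Podxl ranked 9th and Apela 29th of the 9524 differences. Gdf3 and Lin28a were under the floor on both arrays.

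In the KO-labelled no-DOX library, 5 of the 7 were 2-fold or more higher than in WT MEFs without DOX, where 5.04% of 9253 genes were, and 0 were lower, where 9.53% were, a comparison the rule also used. Apela differed by 4.82, Podxl by 3.95, Gdf3 by 3.10, L1td1 by 2.31 and Fgf4 by 1.22. Counted from the floor, Podxl was at least 5.07-fold and Apela at least 3.70-fold higher, while Gdf3, L1td1 and Fgf4 were at least 1.81-fold, 1.33-fold and 1.15-fold higher. Apela had the second highest difference of all genes above the floor. Etv5 differed by 0.67, and Lin28a was under the floor on both arrays.

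The KO-labelled DOX library stood apart from these. Of the 7 genes, none was higher and none lower by 2-fold than in WT MEFs without DOX, with 1.88% and 2.63% of 9024 genes doing so, and 6 of the 7 were under the floor on both arrays. Etv5, the remaining one, differed by -0.35. Against the KO-labelled no-DOX library, 6 of the 7 were 2-fold or more lower and 0 higher, where 2.93% of 9119 genes were lower and 6.81% higher. Apela differed by -4.73, Podxl by -3.95, Gdf3 by -2.69, L1td1 by -2.59, Fgf4 by -1.65 and Etv5 by -1.02. Against WT MEFs with DOX, 5 of the 7 were 2-fold or more lower and 0 higher, where 12.1% of 9572 genes were lower and 14.3% higher, led by Podxl at -6.67. The genes were picked as high in one or the other of these libraries, so nothing is read from either count. These comparisons share arrays with the ones above, so their values are not independent of them.

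**Figure D2:**
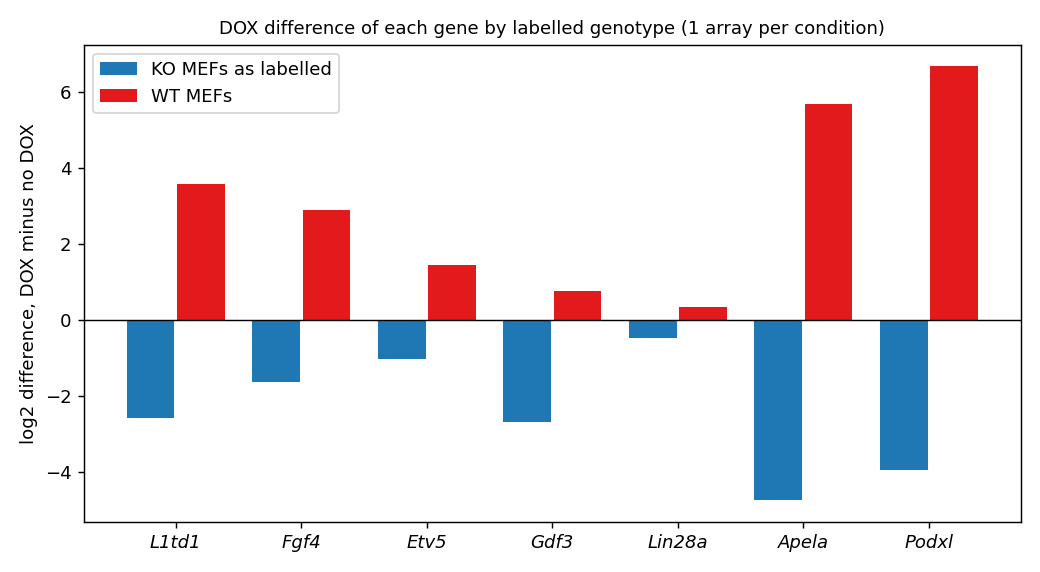
Log2 difference with DOX minus without DOX (vertical axis) of each gene, in the KO MEFs as labelled (blue) and in WT MEFs (red), each bar the difference of 2 arrays with no replicate. Podxl differs by -3.95 in the KO MEFs as labelled and by 6.67 in WT MEFs, and all 7 genes have opposite signs, with Lin28a under the floor on all 4 arrays and Gdf3 under it in the WT pair.

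The Pou5f1-high libraries differed in which genes they held. Set against WT MEFs with DOX, the KO-labelled no-DOX library had Gdf3 at least 1.81-fold higher, at a log2 difference of 2.33. Podxl was 6.56-fold lower there, Fgf4 3.18-fold lower and L1td1 2.38-fold lower, while Apela and Etv5 were within 2-fold. Thus 1 gene was 2-fold or more higher and 3 were lower, where 10.6% and 13.7% of 9431 genes were. In RefSeq order, with genes not measured on the array left out, Nanog is the next protein-coding gene after Gdf3. Nanog read 7.82 in the KO-labelled no-DOX library, against 5.48 in WT MEFs with DOX.

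The array of the Nanog KO fibroblasts was not used in choosing the genes, though the arrays it is set against were. Their Pou5f1 value of 11.91 was close to that of the other Pou5f1-high libraries. Their Sox2 value of 6.41 was under the floor, as Sox2 was in all 4 Utx MEF libraries, at 5.18 to 5.97. Against WT MEFs without DOX, 2 of the 7 genes, Podxl at least 2.36-fold and L1td1 at least 1.01-fold, were counted as 2-fold or more higher by their log2 differences of 2.85 and 1.92. The background was 35.1% of 10740 genes, on an array whose median gene above the floor differed by 0.73. With array medians aligned, L1td1 differed by 1.17 and Podxl by 2.11, and of the pair 1 was then counted. Etv5 was at least 2.84-fold lower, at -3.10, where 3.72% of genes were 2-fold or more lower, the 31st lowest of 10740 differences. Fgf4 differed by 0.33, or by -0.41 with medians aligned, a change of sign under the floor. Against WT MEFs with DOX, 5 of the 7 were 2-fold or more lower and 0 higher, where 5.53% of 10833 genes were lower and 37.2% higher. The genes were picked as high in WT MEFs with DOX, so nothing is read from that count. Podxl was 14.1-fold lower, Etv5 at least 7.76-fold, Apela at least 6.68-fold, Fgf4 at least 3.67-fold and L1td1 3.13-fold lower.

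Against WT MEFs without DOX, WT ESCs had all 7 genes 2-fold or more higher by log2 difference, where 14.5% of 9673 genes were, and 0 lower, where 19.8% were. Being an ESC gene was part of the choice, so the count describes the rule. Apela was at least 13.2-fold, Fgf4 at least 11.7-fold, Gdf3 at least 9.91-fold, L1td1 at least 4.11-fold, Lin28a at least 2.89-fold and Podxl at least 1.28-fold higher. Etv5, above the floor on both arrays, was 5.91-fold higher.

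In the ESCs, where the Utx genotype was not part of the choice, none of the 7 genes was 2-fold or more apart between Utx KO and WT. Of 8598 genes, 0.651% were higher and 3.18% lower in Utx KO ESCs. The count is thus near the share of all genes, and nothing is read from it. Apela had the largest difference, at -0.83 or 1.77-fold lower, the 361st lowest of all. Gdf3 differed by 0.43, the 533rd highest of all. Fgf4 differed by 0.32, Podxl by -0.30, Etv5 by 0.20, L1td1 by -0.11 and Lin28a by 0.08. With 1 library of each genotype these differences were not tested. Of the 17 fibroblast markers, 2 were above the floor in Utx KO ESCs and 12 in WT ESCs, with median levels of 5.90 and 8.23, and their part in the differences was not tested.

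How far each library lay toward ESCs was expressed as a reach, its log2 difference from WT MEFs without DOX as a percent of the difference of WT ESCs from the same MEFs. In WT MEFs with DOX the reach was 90.3% for L1td1, 85.2% for Apela, 63.3% for Fgf4, 56.6% for Etv5, 13.8% for Gdf3 and 10.4% for Lin28a. The order thus ran from near the ESC value to near the start, and the last pair was under the floor. Podxl, at 339%, lay beyond ESCs, but it was 1.97 higher in WT ESCs on the log2 scale and so missed the 4-fold difference used for the background. Of the 478 genes 4-fold or more higher in WT ESCs, 28.9% had a reach of 50% or more and the median was 16.5%. Of the 6 members among the 478, 4 were at 50% or more and their median was 59.96%. All 7 had a median of 63.3%, and 35 other pluripotency genes in that group had a median of 6.83%, with 3 at 50% or more. The rule chose the members on these same arrays, so nothing is read from their place beside the other genes.

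In the KO-labelled no-DOX library the reach was 72.4% for Apela, 58.7% for L1td1, 55.8% for Gdf3, 26.8% for Fgf4, 26.3% for Etv5 and 12.1% for Lin28a, and Podxl was at 201%. Of the 7 genes, 4 were at 50% or more, and of the 6 among the 478 these were 3, where 18.2% of the 478 genes were. Of the other 35 pluripotency genes 0 were at 50% or more. Their highest reach was 41.5%, for the glucose transporter gene Slc2a3. The rule used this library too, so nothing is read from how the members stand beside these genes. Gdf3 and Nanog, the next measured gene after it, reached 55.8% and 34.9% here, against 13.8% and 0.73% in WT MEFs with DOX. The order of Fgf4 and Gdf3 was opposite in these libraries.

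In Nanog KO fibroblasts 0 of the 6 members among the 478 were at 50% or more, where 27.0% of the 478 genes were, and Podxl, outside that group, was at 145%. L1td1 was at 48.6%, Apela at 37.1% and Fgf4 at 7.31%, the last pair under the floor. With array medians aligned these were 29.8%, 26.0% and -8.92%, and with values under the floor set to it L1td1 was at 0.56%. Podxl was at 107% with medians aligned. Etv5, at -121%, was the lowest of the 478 genes on the log2 scale, with its value in this library under the floor. On the linear scale, where 2 is raised to the log2 value, it was at -18.0%. In the KO-labelled DOX library the values ran from -13.5% for Etv5 to 7.39% for Gdf3, with 0 of the 7 genes at 50% or more, and 0 of the 6 among the 478, where 1.26% of the 478 genes were.

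The scale, the floor and the probe set all changed the size of a reach. On the linear scale, where 2 is raised to the log2 value, WT MEFs with DOX reached 75.2% for L1td1, 50.1% for Apela, 35.3% for Etv5, 28.3% for Fgf4, 1.53% for Gdf3 and 3.28% for Lin28a. L1td1 and Apela were still at 50% or more, and Fgf4 and Etv5 were not. The linear reach in the KO-labelled no-DOX library was 27.6% for L1td1, 27.3% for Apela and 16.5% for Gdf3, so of the 4 genes at 50% or more on the log2 scale Podxl alone stayed there. On the log2 scale, with values under the floor set to it, L1td1 was at 20.0% and Fgf4 at 5.85% in that library. The other probe set of Etv5, an alternative chosen after seeing the data, gave 97.2% in WT MEFs with DOX, 52.8% in the KO-labelled no-DOX library and -175% in Nanog KO fibroblasts. Its difference between WT ESCs and WT MEFs without DOX was 1.53, against 2.56 for the probe set used, while the DOX differences in WT MEFs were 1.48 and 1.45.

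**Figure D3:**
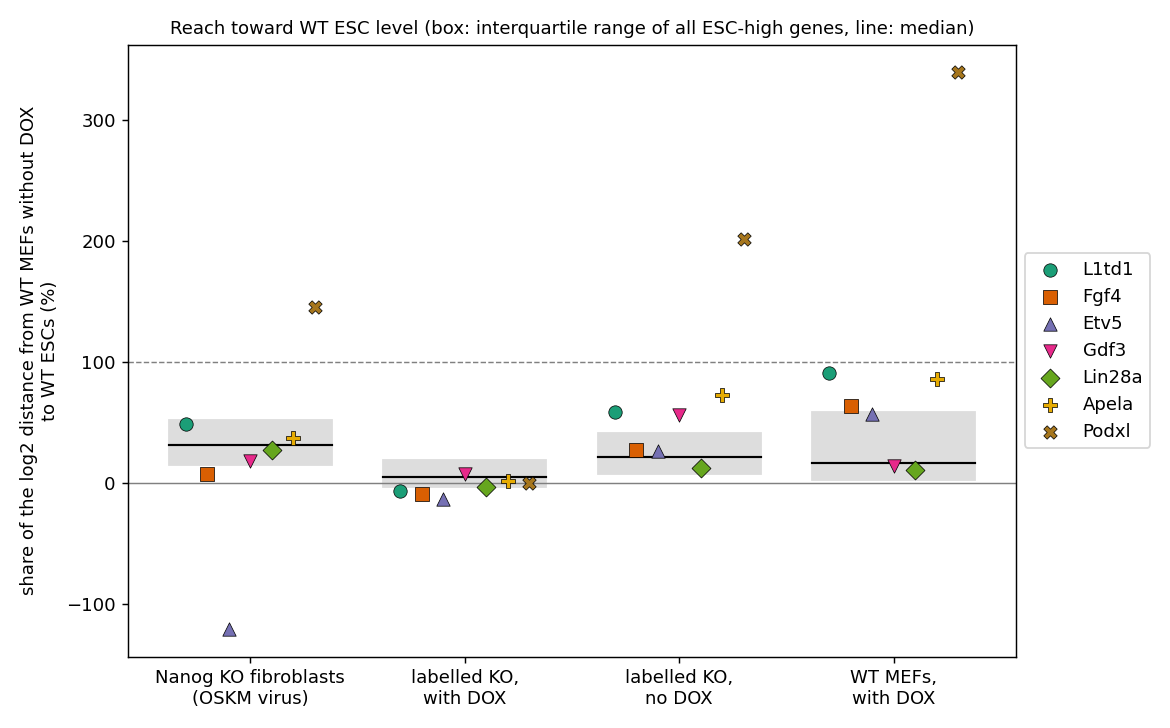
Reach of each gene (points) in 4 fibroblast libraries, as a percent of the log2 distance from WT MEFs without DOX to WT ESCs, whose level is the dashed line. Grey boxes are the interquartile range and black lines the median of the 478 genes 4-fold or more higher in WT ESCs. L1td1 at 90.3% and Apela at 85.2% lie near the dashed line in WT MEFs with DOX, and Etv5 lies at -121% in Nanog KO fibroblasts.

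The FGF and ERK list, 19 other ligands, receptors, targets and inhibitors of this route, held genes both higher and lower beside Fgf4 and Etv5. In WT MEFs with DOX, 5 of the 16 genes of the list over the floor were higher by 2-fold or more than without DOX and 5 were lower, beside 11.9% and 13.7% of all genes, and the list median was -0.27. Spry4, an inhibitor of the route that it also switches on, read 10.28 with DOX and 8.04 without. Etv4, a relative of Etv5, read 7.62 and 6.10, and Etv1, also on the list, read 7.84 and 7.41. The receptor gene Fgfr2 was lower by 3.11, at 5.47 with DOX and 8.58 without, and the ligand gene Fgf2 read 5.98 and 8.91. Dusp6, an ERK phosphatase, differed by -0.79. In the KO-labelled no-DOX library, 0 of 14 were higher and 3 lower than in WT MEFs without DOX, beside 5.04% and 9.53% of all genes.

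In Nanog KO fibroblasts, where Etv5 was under the floor, 7 of 14 members of this list were 2-fold or more lower than in WT MEFs without DOX and 1 was higher. The background there was 3.72% lower and 35.1% higher, and the list median was -0.55, beside 0.73 for all genes above the floor. Egr1, an immediate early gene of ERK signalling, read 6.504 in Nanog KO fibroblasts and 10.30 in WT MEFs without DOX. Dusp6 read 5.78 and 9.40, Dusp4 5.74 and 7.92, and Spry4 6.25 and 8.04. All 4 and Etv5 were under the floor in Nanog KO fibroblasts and above it in WT MEFs without DOX. The array also differs from the others in cell line, in how the factors were delivered and in its median, and these cannot be told apart from the Nanog genotype. The labels name the same medium with 2i for every sample, and the part of the medium in these values was not tested.

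**Figure D4:**
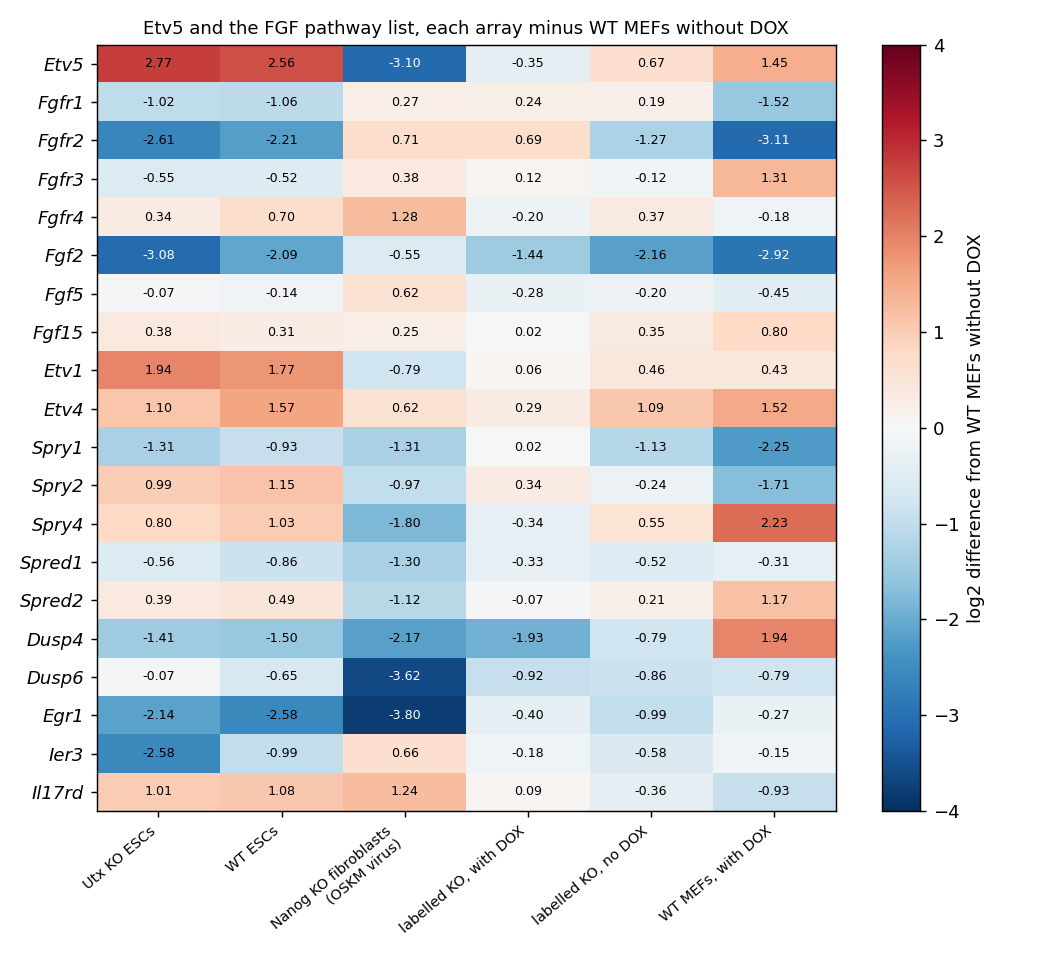
Log2 difference of 6 arrays (columns) from WT MEFs without DOX for Etv5 and the 19 genes of the FGF and ERK list (rows), with red for higher and blue for lower. In the Nanog KO column Etv5 is at -3.10, Dusp6 at -3.62 and Egr1 at -3.80, and in the column of WT MEFs with DOX Etv5 is at 1.45, Spry4 at 2.23 and Fgfr2 at -3.11.

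Of 13 measured genes of the Nodal list, 7 were above the floor in each of the 5 fibroblast libraries, against 10 in Utx KO and 11 in WT ESCs. The ligand Nodal and the co-receptor Tdgf1 were not among them in fibroblasts. Nodal, the related ligand, read 10.45 in Utx KO and 10.01 in WT ESCs and at most 6.71 in the fibroblast libraries. Tdgf1, the co-receptor of Nodal and Gdf3, read 12.58 in Utx KO and 12.34 in WT ESCs and at most 5.94 in fibroblasts. Of the 7 members of the Nodal list above the floor, 1 was 2-fold or more higher in WT MEFs with DOX, the proprotein convertase gene Pcsk6 at 1.87, and 0 were lower, beside 11.9% and 13.7% of all genes. In the KO-labelled no-DOX library, 0 of 7 were higher and 2 lower, Pcsk6 at -1.58 and Smad7, an inhibitor of this family's signalling, at -1.05. The shares over all genes were 5.04% and 9.53% there.

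The partners of the other genes are read against the same shares, 11.9% higher and 13.7% lower for WT MEFs with DOX against those without. Aplnr, the receptor of Apela, was under the floor on all 7 arrays, at 5.66 to 7.03, and Apln, the other ligand of this receptor, read 6.48 in WT MEFs with DOX and 7.69 without. Of 3 genes of the apelin list above the floor there, 0 were higher and 2 lower, Apln at -1.21 and Tgfb1, a TGF-beta ligand, at -1.68. Lin28b, the relative of Lin28a, was under the floor on all 7 arrays, and of 11 members of the let-7 list above the floor in WT MEFs with DOX or without, 1 was higher with DOX, Trim71 at 1.91, and 1 lower, Dgcr8 at -1.32, near the share of all genes. Trim71 encodes a let-7 target protein of ESCs, and Dgcr8 the partner of Drosha in microRNA processing. Of 6 partners of Podxl above the floor, 2 were higher with DOX, Ezr at 2.00 and Slc9a3r1 at 1.82, which encode the linker ezrin and an adaptor that binds Podxl. Those higher in the KO-labelled no-DOX library were Cd34 at 1.96 and Ezr at 1.25, beside 5.04% of all genes.

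Podxl also marks other cell types, and markers of these were read beside it. Msln, a mesothelial surface protein, read 11.69 in Nanog KO fibroblasts, 6.47 in the KO-labelled DOX library, 7.08 in the KO-labelled no-DOX library, 12.34 in WT MEFs with DOX and 6.51 in WT MEFs without DOX. Of the 7 measured podocyte and mesothelial markers, 6 were above the floor in Nanog KO fibroblasts, 1 in the KO-labelled DOX library, 2 in the KO-labelled no-DOX library, 3 in WT MEFs with DOX and 2 in WT MEFs without DOX. Wt1, a marker of both cell types, read 6.09 in WT MEFs with DOX and Nphs1, a podocyte marker, 5.92, both under the floor. In Nanog KO fibroblasts Wt1 read 8.09, above the floor. Synpo, of the same list, differed from Msln in direction in WT MEFs, at 5.73 with DOX and 7.70 without. Cdh1, the epithelial adhesion molecule, read 8.44 in Nanog KO fibroblasts, 5.52 in the KO-labelled DOX library, 9.54 in the KO-labelled no-DOX library, 11.74 in WT MEFs with DOX and 5.79 in WT MEFs without DOX. Of the 7 measured endothelial markers, 3 were above the floor in Nanog KO fibroblasts, 4 in WT MEFs with DOX and 2 without. The KO-labelled DOX and no-DOX libraries had 1 and 2 above it. Among them Tek read 12.01 in Nanog KO fibroblasts, and 6.83 and 9.88 in the KO-labelled DOX and no-DOX libraries. It read 10.01 in WT MEFs with DOX and 6.43 without, while Pecam1 was under the floor in all of these. Flt1, of the same list, was instead highest in WT MEFs without DOX, at 9.25, against 7.87 with DOX. It read 6.77 in Nanog KO fibroblasts, and 6.92 and 6.41 in the KO-labelled DOX and no-DOX libraries. The part of mesothelial, epithelial or endothelial cells in the Podxl values was not tested.

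Over the 7 arrays, which share a platform, the genes fell into unlike patterns, given as descriptions. L1td1 and Apela were most alike, at Pearson's r = 0.98, and Gdf3 and Lin28a followed at 0.93. Podxl was unlike Gdf3 at 0.00 and Lin28a at -0.07. Fgf4 and Etv5 were at 0.82 over 7 arrays and at 0.998 over the 6 Utx arrays. The Pou5f1 level went with L1td1 at 0.90, Apela at 0.85, Fgf4 at 0.70 and Podxl at 0.69, and with Gdf3 at 0.55, Lin28a at 0.56 and Etv5 at 0.30. The level of the epithelial gene Cdh1 went more closely with each of them. It was at 0.98 with L1td1, 0.97 with Apela, 0.84 with Fgf4 and 0.75 with Podxl. With Gdf3 it was at 0.63, with Lin28a at 0.60 and with Etv5 at 0.57. The Pou5f1 probe set may read the induced factor as well as the cell's own gene, which was not tested.

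Among 4086 genes above the floor somewhere and with a range of 2 or more, the genes most like each member over 7 arrays were these. L1td1 was most like Cth, Tbc1d8 and Gsta4 (r = 0.98 to 0.99), and Apela was most like Tbc1d8, L1td1 and Shroom3 (0.98 to 0.99). Fgf4 was most like Ppat, Slc2a3 and Gabbr1 (0.99), and Gdf3 most like Trh, Usp44 and Mreg (0.994 to 0.999). Lin28a was most like Grik3, Gtsf1l and Cbx7 (0.998 to 0.999), and Podxl most like Cxadr, Prom1 and Tgm3 (0.98). Etv5 was most like Cdc20, Stil and Ciart (0.94 to 0.96), the loosest set. With the Nanog KO array left out, 2 of the 3 stayed for L1td1, Gdf3, Lin28a and Apela and 0 of 3 for Fgf4, Etv5 and Podxl. Over those 6 arrays Etv5 and Fgf4 were each among the 3 genes most like the other.

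Chromosomal neighbours, chosen after the values were seen, were mixed. Of 21 measured neighbours above the floor, from the nearest 2 on each side of each gene, 5 were 2-fold or more higher in WT MEFs with DOX and 4 lower, beside 11.9% and 13.7% of all genes. Those higher were Ano1 beside Fgf4 at 4.66, Kank4 and Patj beside L1td1 at 4.04 and 3.11, Usp1 near L1td1 at 1.41, and Slc2a3 near Gdf3 at 2.97. Ano1 encodes a chloride channel, Patj a protein of epithelial tight junctions and Usp1 a deubiquitinase. In WT ESCs Ano1, Kank4 and Patj were under the floor, with Ano1 at 5.73 and Kank4 at 6.14, unlike Fgf4 and L1td1. The neighbours of Apela within the same distance were within 2-fold in WT MEFs with DOX where above the floor.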

How the data were processed

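RNA of 7 samples was read on 1 Affymetrix array each, and groups were taken from the labels. The values deposited by the authors are on a log2 scale, and the submitters' processing notes name RMA and Affymetrix Expression Console as tools. No label states a genome build, or whether the Nanog KO array was normalized together with the rest. Values were used as deposited. Gene names came from the platform annotation: 14894 rows carried 1 symbol, 925 carried several and stayed unnamed, and 5992 had no entry in it. The row with the highest mean stood for a gene with several.

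The members and lists were chosen with earlier results of these data known. A gene counted as higher or lower at a 2-fold difference with at least 1 of both values over the floor. Likeness was Pearson's r, the 3 highest being named. The 7 members, the factors, Kdm6a, fixed partner genes and at most 4 genes of a list by size of difference were named, while the cell type markers and neighbours named were chosen after their values were seen. The code was tested on simulated data. Alternatives covered scaling, rows, floor, fold and reach. Python 3.11.15, numpy 2.4.6, pandas 2.3.3 and matplotlib 3.10.9 were used. Array number limits the precision, and depth has no counterpart on these arrays.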

Additional observations from a re-analysis of the deposited data

Results flagged for a closer look

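The difference of DOX minus no DOX had opposite signs in the MEFs labelled KO and the WT MEFs for 5 genes at 2-fold or more in both pairs, and no test of this was made, as each condition has 1 array. In the MEFs labelled KO and in WT MEFs it was -4.73 and 5.67 for Apela, -3.95 and 6.67 for Podxl, -2.59 and 3.56 for L1td1, -1.65 and 2.89 for Fgf4, and -1.02 and 1.45 for Etv5. The difference of labelled KO minus WT likewise had opposite signs with and without DOX for 4 genes. With DOX and without, it was -6.67 and 3.95 for Podxl, -5.59 and 4.82 for Apela, -3.84 and 2.31 for L1td1, and -3.31 and 1.22 for Fgf4. That was not tested either, and both rest on the libraries whose Pou5f1 level goes against their DOX label.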

How the results depend on the processing

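No paired analysis was possible because each condition has 1 array. Of 120 counts of members under an alternative, 112 stayed within 1.5 times and 8 did not. In Nanog KO fibroblasts against WT MEFs without DOX, the members higher were 1 with aligned medians, with quantile normalization and with the floor at the 60th percentile. With that floor, 2 were higher in the KO-labelled no-DOX library than in WT MEFs without DOX, 0 were higher than in WT MEFs with DOX, and 3 were lower in the KO-labelled DOX library than in the KO-labelled no-DOX library. At 1.5-fold, 1 was lower in Utx KO ESCs than in WT ESCs, and 5 were lower in the KO-labelled no-DOX library than in WT MEFs with DOX. The median reach over the members in Nanog KO fibroblasts, 26.9%, became 4.22% with aligned medians, 8.58% with quantile normalization, 4.55% on the linear scale and 0% with values under the floor set to it. In WT MEFs with DOX, 63.3% became 35.3% on the linear scale and 85.2% with the other Etv5 probe set, which was chosen after seeing the data. In the KO-labelled no-DOX library, 55.8% became 16.5% on the linear scale and 25.8% with values set to the floor. The causes were not tested beyond the alternatives' own construction. Of 193 single-gene values of reach, 58 moved by 10 points or more and none of 10% or more turned its sign. By Spearman's rho, 2 of the 3 most alike genes stayed for L1td1, Lin28a and Podxl and 1 for Fgf4, Etv5, Gdf3 and Apela. Values near the floor are compressed. Every gene but Etv5 was under the floor in WT MEFs without DOX, so differences from that library, those of Apela and Podxl included, are bounds at best for these genes. The same holds for any other difference in which a gene was under the floor on 1 of the arrays.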
